A study of Arabidopsis thaliana with 24 samples.

Results

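The genes described here are 9 members of the myrosinase and glucosinolate specifier system of Arabidopsis thaliana, picked by gene identifier: the beta-glucosidase genes BGLU34 (AT1G47600) and BGLU35 (AT1G51470), the myrosinase genes TGG1 (AT5G26000) and TGG2 (AT5G25980), the nitrile specifier genes NSP1 (AT3G16400), NSP2 (AT2G33070) and NSP5 (AT5G48180), the epithiospecifier gene ESP (AT1G54040) and the epithiospecifier modifier ESM1 (AT3G14210). They are 9 of 32833 genes in the count table, and all 9 were among the 20828 genes that passed the filter on low counts. BGLU35 had been picked out in earlier results of these data by its response to the hormone abscisic acid (ABA) in dark-grown and light-grown wild-type seedlings, and BGLU34 is nearly identical to it in sequence. The values of this pair in every comparison that uses wild-type libraries are therefore a description and carry no test. So are those of all 9 genes in the wild-type difference between the ABA responses of light and dark.

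Whole seedlings of Columbia-0 (WT) and of the pifq mutant in that background were sequenced in 8 groups of 3 libraries, which the design text calls biological replicates: each genotype was grown in darkness or in light, with ABA or with ethanol as the mock. All seeds were stratified for 2 days and grown at 22 °C. Dark groups got a 2 h light pulse and were moved to the treatment after 62 h, with 4 days listed for the treatment. Light groups grew at 10 µmol m-2 s-1 with 16 h of light and 8 h of darkness. They were moved after 72 h, with 5 days listed for the treatment. Light thus cannot be told apart from age, time of transfer or length of the ABA or mock treatment. The dose of ABA and the mutant alleles are not given in the labels. The name pifq stands for a quadruple mutant of the phytochrome-interacting factor genes PIF1, PIF3, PIF4 and PIF5, whose products hold back light-type development in darkness.

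Library totals ran from 13722850 to 17538529 counts, and 3 counts in the smallest library stood for 0.257 CPM, counts per 1000000 of the scaled library total. PIF3 transcript stood at 55.9 to 71.2 CPM in WT dark mock and at 1.67 to 3.10 CPM in pifq dark mock, and PIF5 was lower in pifq in all 4 conditions. PIF1 transcript was as high in pifq as in WT or higher, so its level does not check the genotype. PIF4 transcript was higher in pifq than in WT in darkness, at 49.0 to 75.2 against 29.8 to 34.5 CPM in mock and at 143 to 172 against 66.3 to 73.1 CPM with ABA. It was lower in pifq in light. All levels below are in CPM after TMM scaling, with the standard deviation (SD) of 3 libraries, and changes are log2 with their standard error (SE). A gene is called higher or lower where the Benjamini-Hochberg adjusted p of edgeR's quasi-likelihood test, fitted to all genes and all 24 libraries, was under 0.05.

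Myrosinases are thioglucosidases that are stored apart from their glucosinolate substrates and meet them when tissue is crushed. The product forms an isothiocyanate on its own, while nitrile specifier proteins turn it into simple nitriles and the epithiospecifier protein into epithionitriles or nitriles; ESM1 is known to favour isothiocyanates over nitriles. TGG1 and TGG2 are the myrosinases of shoots, found in guard cells and in the myrosin cells along the phloem, whereas BGLU34 and BGLU35, also named TGG4 and TGG5, are known as root myrosinases. Columbia-0 is known for little epithiospecifier activity.

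BGLU34 lies at chr1:17491731-17494779 and BGLU35 at chr1:19087384-19090523, both on the plus strand of TAIR10.1 (RefSeq), and their coding sequences match at 1500 of 1536 positions (97.7%) with no gap. Coding bases 66 to 155 are shown because no other 90-base stretch of the alignment holds more differences. Capitals mark the bases that differ, both sequences are read 5′ to 3′, and there are 5 such bases in 90.
BGLU34: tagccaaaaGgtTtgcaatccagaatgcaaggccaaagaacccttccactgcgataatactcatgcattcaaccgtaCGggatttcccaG
BGLU35: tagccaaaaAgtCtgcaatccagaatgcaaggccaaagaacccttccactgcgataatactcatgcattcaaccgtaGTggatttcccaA
The longest identical run of the 2 coding sequences was 187 bases, so a read of 100 bases inside it cannot be placed by its own bases alone. Reads came in pairs, and how such pairs were counted is not stated. Of all 100-base windows of the BGLU34 transcript, 10.4% also occur in BGLU35, and 9.93% of those of BGLU35 occur in BGLU34. The remaining windows tell the genes apart, and BGLU35 had 0.667 to 1.2 times as many counts as BGLU34 (median 0.963) in the 20 libraries with at least 20 counts of each.

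The likeness of the pair goes on upstream of the gene. The 150 bases before each annotated start are shown because these genes had nearly the same level in every group; capitals mark bases that differ or have no partner.
BGLU34, chr1:17491581-17491730, plus strand: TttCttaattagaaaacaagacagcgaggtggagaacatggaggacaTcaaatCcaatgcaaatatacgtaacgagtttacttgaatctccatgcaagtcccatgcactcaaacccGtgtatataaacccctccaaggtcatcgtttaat
BGLU35, chr1:19087234-19087383, plus strand: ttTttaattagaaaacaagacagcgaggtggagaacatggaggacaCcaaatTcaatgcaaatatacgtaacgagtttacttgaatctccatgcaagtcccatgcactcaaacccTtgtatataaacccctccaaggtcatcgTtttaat
In this window 145 of 149 aligned bases were identical (97.3%), and in the 150 bases farther upstream 83 of 114 (72.8%). The letters CACGTG, the core of the G-box that PIF proteins and ABA-response factors are known to bind, were in the 300 bases upstream of 0 of the 9 genes, and 7.09% of 27443 such promoters hold them. The shorter ACGTG, searched on both strands and contained in CACGTG, was in the TGG2 promoter only, at 155, 113 and 107 bases upstream of its start, and 25.6% of promoters hold it. A match of letters is a description and not a binding site.

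BGLU34 and BGLU35, the root myrosinase genes, were lower with ABA in every condition. In WT dark mock BGLU34 had 47.4, 28.7 and 35.6 CPM, against 0.388, 0.0598 and 0.128 CPM in WT dark ABA, where the 3 libraries held 7, 1 and 2 counts. BGLU35 had 41.4, 29.6 and 31.5 CPM in WT dark mock and 0.221, 0 and 0.320 CPM in WT dark ABA, from 4, 0 and 5 counts. Every mock library thus lay far above every ABA library, and the ABA level of both genes was near the limit of detection. The changes of -7.50 ± 0.65 (SE) for BGLU34 and -7.52 ± 0.73 for BGLU35 are given without a test. They were -8.53 for BGLU34 without WT dark ABA replicate 1 and -8.12 for BGLU35 without WT dark ABA replicate 3.

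The ABA libraries held more of both transcripts in dark pifq than in dark WT, which is a description. BGLU34 had 28.4, 24.3 and 37.7 CPM in pifq dark mock and 4.45, 15.4 and 9.07 CPM in pifq dark ABA. BGLU35 had 26.0, 22.9 and 35.4 CPM and then 3.08, 16.9 and 9.89 CPM. The groups did not overlap, and the ABA libraries spread over more than a factor of 3. ABA changed BGLU34 by -1.64 ± 0.39 (adjusted p = 0.00189) and BGLU35 by -1.49 ± 0.43 (adjusted p = 0.00813) in dark pifq. The latter was -2.12 without pifq dark ABA replicate 2, and its adjusted p was 0.0634 when only the 2 compared groups were fitted.

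In mock-treated darkness pifq minus WT was -0.31 ± 0.36 for BGLU34 and -0.29 ± 0.40 for BGLU35, with groups that overlapped. Both are given without a test, since WT mock libraries also entered the response by which BGLU35 had been picked out. With ABA in darkness pifq minus WT was 5.55 ± 0.71 for BGLU34 and 5.74 ± 0.80 for BGLU35. The ABA change in pifq minus that in WT was 5.86 ± 0.83 and 6.03 ± 0.93 in darkness. These 4 values are given without a test, since the WT dark ABA libraries by which BGLU35 had been picked out set them, and their size rests on 10 and 9 counts in that group. Without WT dark ABA replicate 1 the 2 values for BGLU34 were 6.58 and 6.89; for BGLU35 they were 6.35 and 6.63 without WT dark ABA replicate 3, and 5.11 and 5.40 without pifq dark ABA replicate 2.

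In light the pair responded to ABA in both genotypes. BGLU34 had 15.0, 14.2 and 16.3 CPM in WT light mock and 2.06, 1.46 and 4.80 CPM in WT light ABA, and BGLU35 had 14.8, 13.4 and 15.3 CPM and 1.37, 1.75 and 5.40 CPM. No ABA library reached a mock library. The WT changes of -2.46 ± 0.46 and -2.37 ± 0.51, given without a test, were -3.10 and -3.21 without WT light ABA replicate 3, the highest of its group for both genes. In pifq, BGLU34 went from 22.1, 11.9 and 8.08 CPM to 2.02, 1.99 and 1.20 CPM, a fall by 3.0 ± 0.50 (adjusted p = 7.89e-05), and BGLU35 from 19, 12.7 and 7.93 CPM to 2.02, 2.23 and 1.46 CPM, a fall by 2.79 ± 0.55 (adjusted p = 0.000419). The ABA change in pifq minus that in WT was -0.54 for BGLU34 and -0.42 for BGLU35 in light, also given without a test.

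Light itself went with lower mock levels of the pair and, under ABA, with opposite signs in the genotypes. The mock level of BGLU34 was 37.2 ± 9.46 CPM in WT darkness and 15.2 ± 1.06 in WT light, a difference of -1.30, and that of BGLU35 was 34.2 ± 6.31 and 14.5 ± 0.97 CPM, a difference of -1.24. In mock-treated pifq the differences were -1.09 (adjusted p = 0.0192) and -1.08 (adjusted p = 0.0363). Neither call held up when pifq dark mock replicate 3, pifq light mock replicate 2 or pifq light mock replicate 3 was left out (adjusted p 0.0672 to 0.0965 for BGLU34 and 0.0855 to 0.149 for BGLU35). That of BGLU35 was also lost without pifq dark mock replicate 1 (adjusted p = 0.0577). Under ABA, light minus dark was 3.74 and 3.91 in WT, given without a test, and -2.46 (adjusted p = 0.000482) and -2.38 (adjusted p = 0.00139) in pifq. The BGLU35 value in pifq was -1.75 without pifq dark ABA replicate 2. The WT values were 4.77 for BGLU34 without WT dark ABA replicate 1, 4.52 for BGLU35 without WT dark ABA replicate 3, and 3.11 and 3.07 without WT light ABA replicate 3.

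Ordered by mean level, BGLU34 ran from WT dark mock through pifq dark mock, WT light mock, pifq light mock, pifq dark ABA, WT light ABA and pifq light ABA down to WT dark ABA, and BGLU35 had the same order. Along this order, the ranges of neighbouring groups did not overlap only between pifq dark mock and WT light mock and between pifq light ABA and WT dark ABA. Over the 24 libraries the log levels of the pair correlated with r = 0.991, a description over libraries that share groups, and over genes that may share part of their reads.

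**Figure D1:**
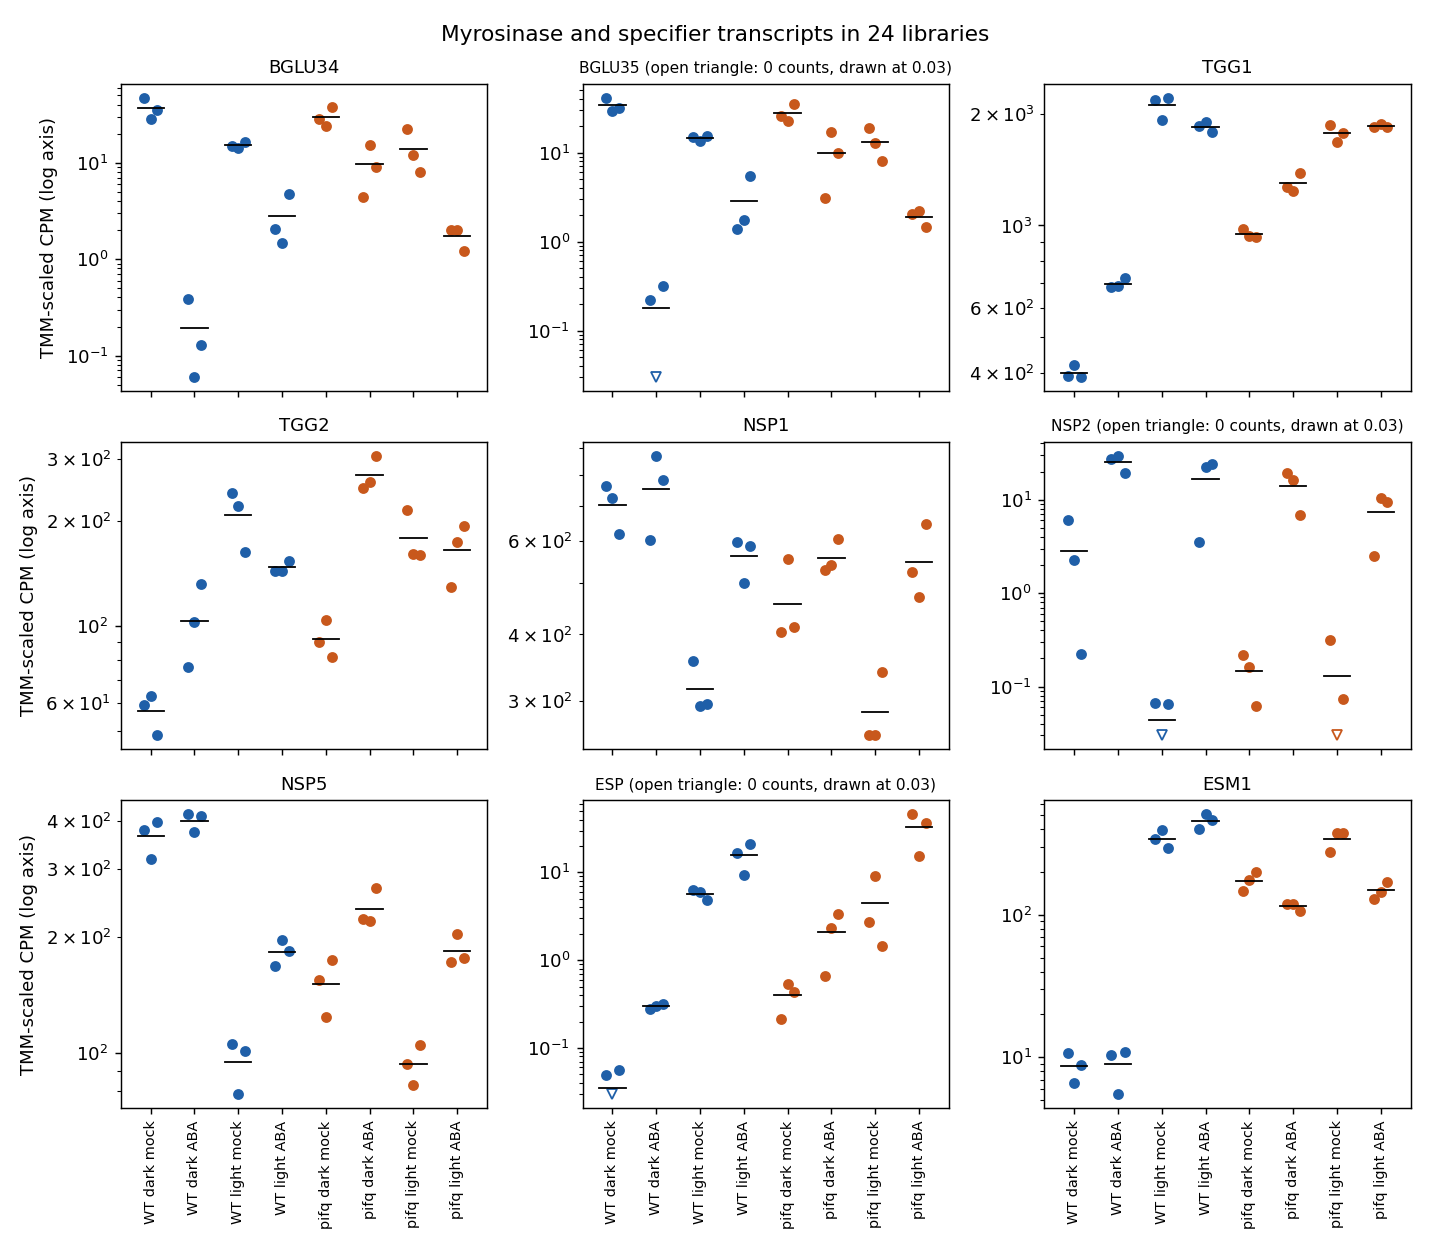
Level of each of the 9 genes in every library, in CPM on a log axis, by group; blue points are WT and orange points pifq libraries, bars are group means, and an open triangle marks a library with 0 counts. BGLU34 and BGLU35 fell to under 0.4 CPM in the 3 WT dark ABA libraries and stayed at 3.08 CPM or more in the 3 pifq dark ABA libraries.

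Root markers were measured beside the pair, because whole seedlings were sampled and a root gene's level also depends on how much root tissue is in the sample. Fewer cells of a type and less RNA per cell cannot be told apart in these bulk samples. Of 13 root markers, 12 were lower with ABA in WT dark (median change -1.79), where 40.3% of all genes were called and 17.5% were lower. In pifq dark 5 were lower and 4 higher (median 0.10), against 48.6% of all genes. In WT light 5 were lower and 1 higher (median -0.53), against 40%. In pifq light 4 were lower and 1 higher (median -0.05), against 46.7%. The counts in light are near these shares. Their summed level ranged from 879 to 1161 CPM in WT dark mock, 276 to 348 in WT dark ABA, 616 to 874 in pifq dark mock and 247 to 393 in pifq dark ABA, and no marker was at 0 counts in any group. In light it was 377 to 415 CPM in WT mock, 160 to 234 in WT ABA, 216 to 322 in pifq mock and 150 to 157 in pifq ABA.

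The root markers fell with BGLU34 and BGLU35 under ABA in WT darkness, whereas in dark pifq their median was 0.10 while the pair changed by -1.64 and -1.49. The 4 markers called higher there were EXPA7, EXPA18, PRP3 and COBL9; COBL9, a gene of root hair growth, went from 1.73 to 5.06 CPM on average, and EXPA18, a root hair expansin, from 1.33 to 5.69. CASP1, of the Casparian strip, changed by -1.12 ± 0.28 in WT dark and by -1.90 ± 0.30 in pifq dark. The ABA response of the markers differed between the genotypes in darkness for 8 of 13, each higher in pifq, against 11.4% of all genes called. The median was 2.74, against -0.01 over all genes. IRT1, the root iron transporter, changed by -10.01 ± 0.59 with ABA in WT dark and by -4.51 ± 0.40 in pifq dark. AGP30, a root arabinogalactan protein, changed by -8.14 ± 0.88 in WT dark and by -1.94 ± 0.56 in pifq dark. Its profile was the nearest to those of the pair among all genes with a symbol. That ranking used these same groups, so its likeness to the pair here follows from it and is a description only. In light against dark WT mock, 7 of 13 root markers were lower and 1 higher (median -0.68), against 64.9% of all genes. In pifq mock 7 were lower and 2 higher (median -1.20), against 57.3%. Under ABA, 6 were higher and 3 lower in WT light (median 0.99), against 62.6%. In pifq light under ABA 8 were lower and 0 higher (median -1.08), against 56.1%. In dark ABA 9 were higher and 3 lower in pifq than in WT (median 1.66), against 39.6%. The part of root amount in the BGLU34 and BGLU35 results was not tested.

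**Figure D2:**
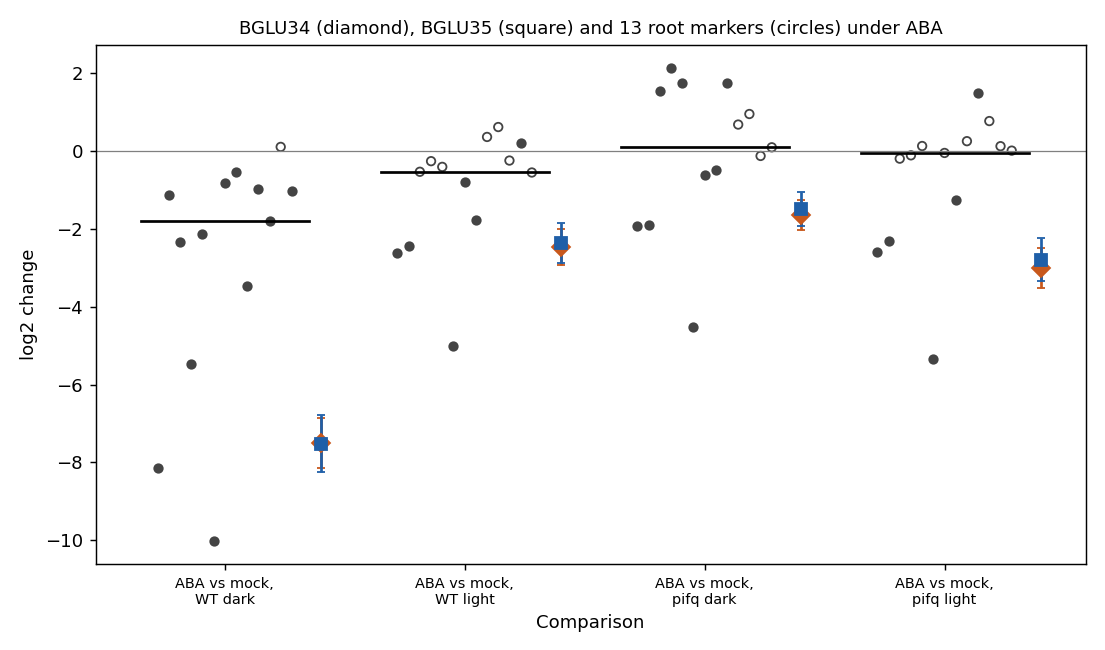
Log2 change with ABA of the 13 root markers and of BGLU34 and BGLU35 in the 4 ABA comparisons; circles are markers, filled where edgeR's adjusted p was under 0.05, the diamond is BGLU34 and the square BGLU35, both with their SE, and the line is the median of the markers. In WT dark 12 of 13 markers were called lower with a median of -1.79, against 17.5% of all genes, and in pifq dark the median was 0.10.

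TGG1 and TGG2, the shoot myrosinase genes at chr5:9079452-9082384 (minus strand) and chr5:9072708-9075777 (plus strand) of TAIR10.1, were in mock groups higher in light than in darkness and higher in dark pifq than in dark WT. TGG1 was the most abundant of the 9 genes per length in WT light mock, with 1115 ± 83.9 CPM per kb of transcript, where TGG2 had 105 ± 20.6. TGG1 counts were 392, 420 and 389 CPM in WT dark mock, 978, 936 and 931 in pifq dark mock, 2187, 1928 and 2216 in WT light mock and 1865, 1678 and 1774 in pifq light mock. All dark WT libraries lay below all dark pifq libraries, and these below all light libraries. The difference of pifq from WT was 1.24 ± 0.08 in dark mock (adjusted p = 5.06e-10) and -0.25 in light mock (adjusted p = 0.0533), and these differed from each other by -1.49 ± 0.12 (adjusted p = 2.12e-08).

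TGG2 followed the same order in the mock groups, with 59.3, 63.1 and 48.5 CPM in WT dark, 89.8, 104 and 81.6 in pifq dark, 240, 221 and 162 in WT light and 214, 161 and 160 in pifq light. pifq exceeded WT by 0.69 ± 0.19 in dark mock (adjusted p = 0.00548). The genotype effect in light mock, -0.22, minus that in dark mock was -0.91 (adjusted p = 0.0191), which was not called without WT dark mock replicate 3, WT light mock replicate 1 or pifq dark mock replicate 2 (adjusted p 0.0537 to 0.0573). Light exceeded darkness in WT mock by 2.40 ± 0.09 for TGG1 (adjusted p = 4.22e-15) and by 1.87 ± 0.19 for TGG2 (adjusted p = 3.91e-08). In pifq mock the differences were 0.90 for TGG1 (adjusted p = 9.85e-09) and 0.96 for TGG2 (adjusted p = 0.000191).

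ABA raised both genes in darkness. TGG1 rose to 681, 688 and 720 CPM in WT dark, a change of 0.80 ± 0.08 (adjusted p = 9.65e-08), and to 1271, 1240 and 1388 CPM in pifq dark, a change of 0.45 ± 0.08 (adjusted p = 0.000108). TGG2 rose to 76.2, 103 and 132 CPM in WT dark, a change of 0.86 ± 0.19 (adjusted p = 0.000990), and to 248, 257 and 306 CPM in pifq dark, a change of 1.56 ± 0.19 (adjusted p = 1.01e-06). Neither gene's response was told apart between the genotypes in darkness (adjusted p = 0.0588 for TGG1 and 0.0918 for TGG2). That of TGG1, -0.34, was called with library totals as the scale (-0.35, adjusted p = 0.0476) and with DESeq2 (-0.32, adjusted p = 0.00618). That of TGG2 was called without WT dark ABA replicate 3 (0.91, adjusted p = 0.0310). With ABA in darkness pifq stayed above WT by 0.90 ± 0.08 for TGG1 (adjusted p = 4.41e-08) and 1.39 ± 0.19 for TGG2 (adjusted p = 8.25e-06).

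In light the ABA effect on these genes was small or not called. TGG1 had 1857, 1904 and 1786 CPM in WT light ABA, a change of -0.19 with adjusted p = 0.0703. It was called without WT light mock replicate 2 (-0.25, adjusted p = 0.0339), with RLE size factors (-0.21, adjusted p = 0.0496), with library totals (-0.32, adjusted p = 0.00257) and with DESeq2 (-0.21, adjusted p = 0.00329). It had 1846, 1878 and 1848 CPM in pifq light ABA, a change of 0.07 (adjusted p = 0.526). TGG2 had 144, 144 and 153 CPM in WT light ABA, a change of -0.50 ± 0.18 (adjusted p = 0.0365). The call was lost when any of 5 libraries was left out, namely the 3 of WT light ABA and replicates 1 and 2 of WT light mock (adjusted p 0.0618 to 0.154). In pifq light ABA, TGG2 had 129, 174 and 193 CPM, a change of -0.11 (adjusted p = 0.654), so that its groups overlapped.

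The ABA response of both genes therefore differed between light and darkness within pifq, by -0.39 for TGG1 (adjusted p = 0.0238) and by -1.67 ± 0.26 for TGG2 (adjusted p = 0.000258). The TGG1 call was lost without pifq dark ABA replicate 3, pifq light ABA replicate 3 or pifq light mock replicate 1 (adjusted p 0.0562 to 0.0675), and its adjusted p was 0.130 with the compared groups alone. In WT the same differences, given without a test, were -0.99 for TGG1 and -1.36 for TGG2. Under ABA, light exceeded darkness in WT by 1.41 for TGG1 (adjusted p = 5.79e-12) and by 0.51 for TGG2 (adjusted p = 0.0227). The latter was not called without WT dark ABA replicate 1, WT dark ABA replicate 2 or WT light ABA replicate 3 (adjusted p 0.0545 to 0.135), nor with library totals as the scale (adjusted p = 0.114). In pifq under ABA the 2 genes went opposite ways, TGG1 being 0.52 higher in light (adjusted p = 1.75e-05) and TGG2 lower (-0.71, adjusted p = 0.00263). TGG1 and TGG2 share 84.0% of their aligned coding bases and no 100-base window.

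Guard cell and phloem markers moved with the shoot myrosinases in 2 of the mock comparisons. All 10 guard cell and stomatal lineage markers were higher in pifq than in WT in dark mock (median 1.5), against 23.5% of all genes. In WT mock 9 of 10 were higher in light than in darkness (median 1.83), against 32.7% of all genes. Their summed level was 69.1 to 79.5 CPM in WT dark mock, 164 to 165 in pifq dark mock, 174 to 181 in WT light mock and 163 to 185 in pifq light mock. FAMA, a factor needed for both guard cells and myrosin cells, was 1.73 ± 0.19 higher in pifq than in WT in dark mock. Both phloem markers, SUC2 and APL, were higher in those 2 comparisons too. In light against dark pifq mock, where TGG1 and TGG2 were higher, 3 guard cell markers were higher and 2 lower (median -0.01). That is near the 57.3% of all genes called there. Of the phloem markers 0 were higher and 1 lower (median -0.23). With ABA in WT dark, where TGG1 and TGG2 rose, 2 guard cell markers were higher and 1 lower, against 40.3% of all genes called. Their summed level there was 103 to 115 CPM, and 1 phloem marker was higher. Under ABA in darkness TGG1 and TGG2 were higher in pifq than in WT. There 8 of 10 guard cell markers were higher and 1 lower, against 39.6%. With ABA in pifq dark, where TGG1 and TGG2 rose, 6 of 10 guard cell markers were lower and 1 higher, against 48.6%. Their summed level there was 134 to 136 CPM. In WT light, where TGG2 changed by -0.50, 6 guard cell markers were lower and 2 higher with ABA, against 40%. Both phloem markers were higher there. Under ABA in WT, TGG1 and TGG2 were higher in light than in darkness. There 6 guard cell markers were higher and 1 lower, against 62.6%, and both phloem markers were higher. The part of these cell types in the TGG1 and TGG2 results was not tested.

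Among the nitrile specifier genes, NSP1 and NSP5 were abundant and highest in dark WT, and NSP2 was low without ABA. NSP1, at chr3:5566083-5568545, had 763, 724 and 619 CPM in WT dark mock, 404, 555 and 414 in pifq dark mock, 357, 293 and 295 in WT light mock and 258, 259 and 340 in pifq light mock. NSP5, at chr5:19540937-19542760, had 380, 318 and 398 CPM in WT dark mock, 155, 124 and 175 in pifq dark mock, 106, 78.5 and 101 in WT light mock and 93.6, 82.8 and 105 in pifq light mock. In both genes every WT dark mock library exceeded every other mock library. pifq was lower than WT in dark mock, with a difference of -0.62 ± 0.16 for NSP1 (adjusted p = 0.00285) and of -1.27 ± 0.13 for NSP5 (adjusted p = 1.95e-07). In light mock neither difference was called (-0.14, adjusted p = 0.618; -0.02, adjusted p = 0.950).

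The genotype effect on NSP5 differed between light and darkness by 1.25 ± 0.19 in mock (adjusted p = 6.33e-05) and by 0.77 under ABA (adjusted p = 0.00668). Light went with lower mock levels in WT, with changes of -1.16 ± 0.16 for NSP1 (adjusted p = 1.53e-06) and -1.94 ± 0.14 for NSP5 (adjusted p = 6.53e-11), and in pifq, with changes of -0.68 for NSP1 (adjusted p = 0.000841) and -0.69 for NSP5 (adjusted p = 0.000158). NSP1 and NSP5 correlated over the 24 libraries with r = 0.883, as a description.

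ABA raised NSP1 and NSP5 in light in both genotypes. NSP1 rose to 597, 501 and 589 CPM in WT light (0.84 ± 0.16, adjusted p = 0.000190) and to 525, 472 and 647 CPM in pifq light (0.94 ± 0.16, adjusted p = 4.50e-05). NSP5 rose to 169, 197 and 184 CPM in WT light (0.95 ± 0.13, adjusted p = 7.35e-06) and to 172, 204 and 177 CPM in pifq light (0.97 ± 0.13, adjusted p = 4.43e-06). In WT darkness neither gene was called, with 603, 869 and 783 CPM of NSP1 (0.10, adjusted p = 0.649) and 417, 376 and 413 CPM of NSP5 (0.14, adjusted p = 0.431). In pifq darkness NSP5 rose to 224, 220 and 268 CPM (0.65 ± 0.13, adjusted p = 0.000361), while NSP1, with 530, 540 and 604 CPM, changed by 0.29 (adjusted p = 0.132) and was called without pifq dark mock replicate 2 (0.45, adjusted p = 0.0326). The ABA response of NSP5 was not told apart between the genotypes in darkness (0.51, adjusted p = 0.0782). It was called without pifq dark mock replicate 3 (0.63, adjusted p = 0.0314), with library totals (adjusted p = 0.0464) and with DESeq2 (adjusted p = 0.0486).

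Under ABA in darkness pifq remained lower than WT for NSP5 (-0.76 ± 0.13, adjusted p = 0.000105). For NSP1 the difference was -0.43 ± 0.16 (adjusted p = 0.0324), with groups that overlapped, and it was not called without WT dark ABA replicates 2 or 3 or pifq dark ABA replicates 1 or 2 (adjusted p 0.0834 to 0.172). NSP1 was lower in light than in darkness in WT under ABA, with a difference of -0.42 (adjusted p = 0.0232), not called without WT dark ABA replicates 2 or 3 or WT light ABA replicate 2 (adjusted p 0.0629 to 0.130). NSP5 was lower too, with -1.13 (adjusted p = 1.95e-07). In pifq under ABA the light difference of NSP1 was -0.03 (adjusted p = 0.896) and that of NSP5 was -0.37 (adjusted p = 0.0226), the latter not called without pifq dark ABA replicate 3, pifq light ABA replicate 1 or pifq light ABA replicate 3 (adjusted p 0.0716 to 0.122). The ABA response of NSP1 was larger in light than in darkness in pifq by 0.65 (adjusted p = 0.0419), a call lost without any of 7 of the 12 pifq libraries (adjusted p 0.0533 to 0.133). Of the 100-base windows of NSP1, 20.7% also occur in NSP4, whose counts were far lower: 6.05 to 8.96 CPM in WT dark mock, where NSP1 had 619 to 763 CPM.

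NSP2, at chr2:14028282-14031164 on the minus strand, was close to absent in 3 of the 4 mock groups and present in all ABA groups; the protein is best known from seeds. WT light mock held 1, 0 and 1 counts and WT light ABA 51, 309 and 315, or 3.50, 22.5 and 24 CPM, a count ratio of 371 with an exact 95% interval of 102 to 3066 that covers counting error only (edgeR's adjusted p = 6.29e-05). In pifq light, NSP2 went from 0.315, 0 and 0.0728 CPM to 2.48, 10.4 and 9.44 CPM, a rise of 5.72 ± 1.25 (adjusted p = 0.000980), which was 7.45 without pifq light mock replicate 1. In pifq dark it went from 0.215, 0.162 and 0.0621 CPM to 19.3, 16.2 and 6.82 CPM, a rise of 6.48 ± 1.10 (adjusted p = 8.61e-05). Every ABA library exceeded every mock library in each of these comparisons.

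WT dark mock stood apart for NSP2 and was uneven, with 6.07, 2.26 and 0.224 CPM, against 27.2, 29.3 and 19.5 CPM with ABA. The ABA change there was 3.12 ± 0.70 (adjusted p = 0.00139), and 4.31 without WT dark mock replicate 1. pifq was lower than WT in dark mock, with a difference of -4.20 ± 1.28 (adjusted p = 0.0127); without WT dark mock replicate 1 the value was -3.01 with adjusted p = 0.108, so the call rests on that library. Light went with 67.3 times fewer NSP2 counts in WT mock, with an exact 95% interval of 18.3 to 560, resting on 2 counts in light (adjusted p = 0.00531, and 0.0422 without WT dark mock replicate 1). Under ABA the genotypes were not told apart in darkness (-0.85, adjusted p = 0.295), and in light the difference was -1.17 (adjusted p = 0.485). In that last comparison same-numbered libraries of the genotypes deviated together, and with the replicate number as a block in a fit of those 6 libraries the difference was -1.12 with adjusted p = 1.30e-05.

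Seed storage markers moved with NSP2 in the 4 ABA comparisons. Of 10 tested, all 10 were higher with ABA in WT dark, pifq dark and pifq light, against 22.8%, 26% and 23.7% of all genes. In WT light 9 were higher, against 21%. Their summed level was 10.7 to 51.7 CPM in WT dark mock and 1758 to 6082 in WT dark ABA, and 4.10 to 49.1 CPM in WT light mock and 478 to 3169 in WT light ABA; SESA3 was at 0 counts in WT light mock. In pifq the sum was 11 to 47.5 CPM in dark mock, 2974 to 5175 in dark ABA, 3.57 to 11.9 in light mock and 908 to 5434 in light ABA. NSP2 was also called lower in pifq than in WT in dark mock, where 0 of 10 storage markers were called (median -0.14), against 44.4% of all genes. In light against dark WT mock NSP2 was called lower and again 0 of 10 were called (median -1.08), against 64.9%. The part of the storage markers in the NSP2 results was not tested.

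ESP, the epithiospecifier gene at chr1:20170715-20173949 on the minus strand, was at its lowest in darkness. WT dark mock held 1, 0 and 1 counts, and WT dark ABA 5 in each library, a ratio of 8.54 with an exact 95% interval of 1.99 to 77.0 that edgeR did not call (adjusted p = 0.251) and DESeq2 did (adjusted p = 0.0448). The other dark groups had 0.215, 0.539 and 0.434 CPM in pifq mock and 0.655, 2.36 and 3.34 CPM in pifq ABA. In light the levels were 6.25, 6.02 and 4.79 CPM in WT mock, 16.7, 9.41 and 21.2 in WT ABA, 2.70, 9.12 and 1.46 in pifq mock and 45.9, 15.5 and 36.8 in pifq ABA. Every light library thus exceeded every dark library of the same genotype and treatment. Light against darkness gave a count ratio of 163 in WT mock (exact 95% interval 44.6 to 1352, adjusted p = 1.33e-05), 5.69 ± 0.73 in WT ABA (adjusted p = 1.63e-06), 3.47 ± 0.76 in pifq mock (adjusted p = 0.000677; 2.38 without pifq light mock replicate 2) and 3.95 ± 0.55 in pifq ABA (adjusted p = 6.27e-06).

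ABA raised ESP in light. The change was 1.47 ± 0.49 in WT light (adjusted p = 0.0231), a call lost without WT light ABA replicates 1 or 3 or WT light mock replicates 2 or 3 (adjusted p 0.0536 to 0.0964) and with DESeq2 (adjusted p = 0.0569). It was 2.87 ± 0.50 in pifq light (adjusted p = 0.000126), and 3.95 without pifq light mock replicate 2, the highest of its group. In pifq dark it was 2.40 ± 0.83 (adjusted p = 0.0232), not called without pifq dark ABA replicates 2 or 3 or pifq dark mock replicates 1 or 3 (adjusted p 0.0522 to 0.113). pifq exceeded WT under ABA in darkness by 2.79 ± 0.89 (adjusted p = 0.0177), not called without WT dark ABA replicates 1 or 2 or pifq dark ABA replicate 3 (adjusted p 0.0535 to 0.0844). In dark mock its counts were 11.3 times those of WT (exact 95% interval 2.77 to 99.6, from 21 and 2 counts), not called by edgeR (adjusted p = 0.145) and called by DESeq2 (adjusted p = 0.0148). In light the genotypes were not told apart in mock (adjusted p = 0.735) or ABA (1.06, adjusted p = 0.323). With the replicate block in the 6 libraries of light ABA the difference was 1.05 with adjusted p = 0.00201.

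ESM1, the epithiospecifier modifier at chr3:4729399-4731847, was far higher in pifq than in WT in dark mock. It had 10.7, 6.57 and 8.84 CPM in WT dark mock, 147, 176 and 198 in pifq dark mock, 340, 391 and 294 in WT light mock and 274, 374 and 373 in pifq light mock. WT dark libraries lay far below all others, and the light mock groups overlapped. pifq exceeded WT in dark mock by 4.32 ± 0.22 (adjusted p = 2.11e-11), in light mock the difference was -0.01 (adjusted p = 0.993), and these differed by -4.32 ± 0.28 (adjusted p = 2.84e-09). Light exceeded darkness by 5.29 ± 0.23 in WT mock (adjusted p = 9.69e-14) and by 0.97 ± 0.19 in pifq mock (adjusted p = 0.000166).

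With ABA, ESM1 fell in pifq, and no change was called in WT. WT dark ABA had 10.4, 5.56 and 10.9 CPM (a change of 0.04, adjusted p = 0.910), and WT light ABA 401, 506 and 459 CPM (0.41, adjusted p = 0.0809; called with adjusted p = 0.0292 when only the 2 groups were fitted). pifq light ABA had 130, 144 and 170 CPM, a fall by 1.20 ± 0.19 (adjusted p = 2.64e-05), and pifq dark ABA 120, 118 and 107 CPM, a fall by 0.59 ± 0.19 (adjusted p = 0.0124) that was not called without pifq dark mock replicate 3 (-0.49, adjusted p = 0.0590). The ABA response differed between the genotypes in light by -1.61 ± 0.26 (adjusted p = 0.0146); without WT light mock replicate 3 or pifq light mock replicate 2 the adjusted p was 0.0568 or 0.0639. In darkness that difference was -0.63 (adjusted p = 0.174), and -0.88 with adjusted p = 0.0309 without WT dark ABA replicate 2. Under ABA, ESM1 was therefore higher in pifq than in WT in darkness (3.69 ± 0.22, adjusted p = 2.91e-10) and lower in light (-1.62 ± 0.19, adjusted p = 3.87e-05), a difference of -5.31 ± 0.29 (adjusted p = 8.89e-10). Light against darkness under ABA was 5.67 ± 0.23 in WT (adjusted p = 5.99e-14) and 0.36 in pifq (adjusted p = 0.103; called with adjusted p = 0.0106 when only the 2 groups were fitted).

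**Figure D3:**
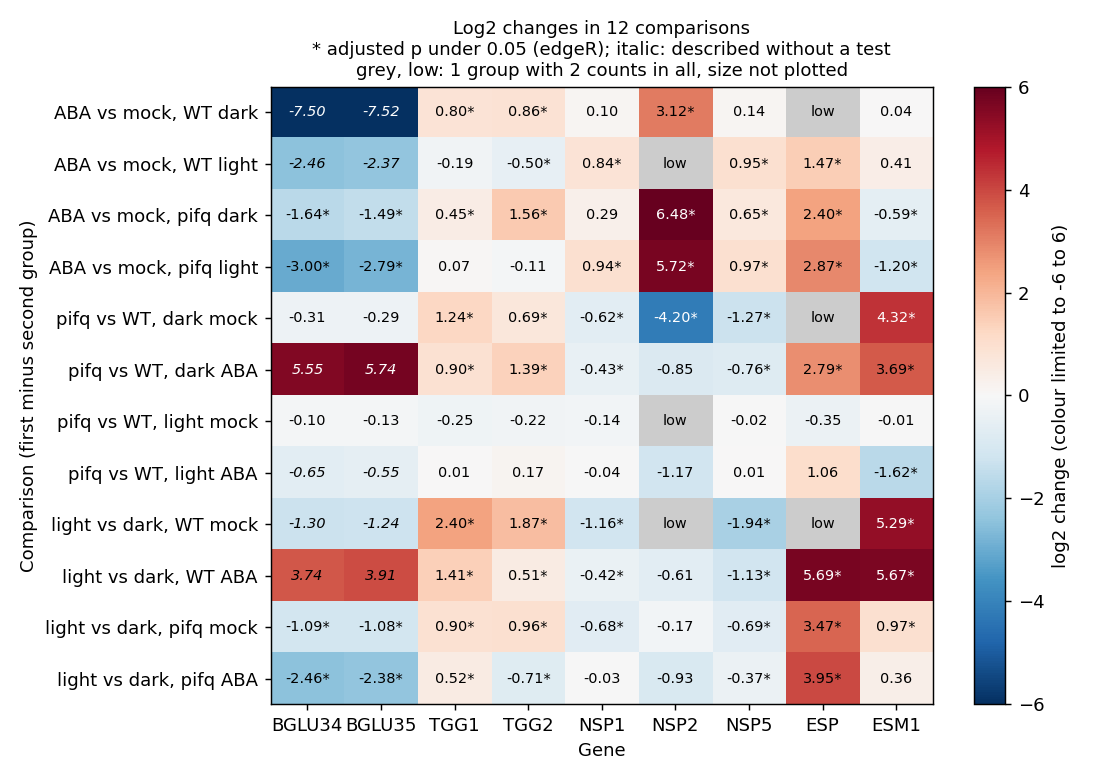
Log2 change of the 9 genes in the comparisons of ABA with mock, pifq with WT and light with darkness; each cell is a gene in a comparison, coloured by its change, with a star where edgeR's adjusted p was under 0.05, in italics where it is described without a test, and grey where 1 group held 2 counts in all. The mock values of BGLU34 and BGLU35 for pifq with WT are set upright but also carry no test. ESM1 and TGG1 were higher in pifq than in WT in dark mock (4.32 and 1.24). They were also higher in light than in darkness in WT mock (5.29 and 2.40), while NSP1 and NSP5 were lower in both.

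Counted over genes, the members were read against the shares of all 20828 tested genes called in the same comparison. With ABA in WT dark, leaving out BGLU34 and BGLU35, 3 of 7 genes were higher and the other 4 were not called; of all genes 40.3% were called, 22.8% higher and 17.5% lower. In WT light 4 of 7 were higher and 1 lower (3 called in all without WT light ABA replicate 1 or 3), against 40% of all genes, 21% higher and 19% lower. With ABA in pifq dark 5 of 9 were higher and 3 lower, against 48.6% of all genes, 26% higher and 22.7% lower. In pifq light 4 were higher and 3 lower, against 46.7%, 23.7% higher and 23% lower. Directions of the called genes were mixed in WT light, pifq dark and pifq light. In WT dark the 3 called genes of the 7 were higher. BGLU34 and BGLU35, left out of that count, were lower there (-7.50 and -7.52, without a test).

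Between genotypes in dark mock, leaving out BGLU34 and BGLU35, 3 of 7 were higher and 3 lower in pifq, against 44.4% of all genes, 23.5% higher and 20.9% lower. In dark ABA, leaving out BGLU34 and BGLU35, 4 of 7 were higher and 2 lower, against 39.6%, 22.2% higher and 17.5% lower. Only 4 to 5 were called in all when any 1 library of the compared groups was left out. In light mock edgeR called 0 of those 7 against 10.6%, 5.64% higher and 4.96% lower, with 1 of the 7 at an unadjusted p under 0.05. DESeq2 called 1, TGG1 (-0.25, adjusted p = 0.00157), which was also called with library totals and without WT light mock replicate 2 (-0.31, adjusted p = 0.0378). In light ABA 1 of those 7, ESM1, was called, lower, against 1.28%, 0.586% higher and 0.696% lower; 3 were called with the replicate block in those 6 libraries, a fit that called 3924 genes in place of 267.

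Between light and darkness in WT mock, leaving out BGLU34 and BGLU35, 4 of 7 were higher and 3 lower in light, against 64.9% of all genes, 32.7% higher and 32.2% lower. In WT ABA 4 of those 7 were higher and 2 lower, against 62.6%, 31.5% higher and 31.1% lower. In pifq mock 4 of 9 were higher and 4 lower, against 57.3%, 29% higher and 28.3% lower. In pifq ABA 2 were higher and 4 lower, against 56.1%, 25.9% higher and 30.2% lower.

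The ABA response differed between light and darkness in pifq for 3 of 9 genes, against 18.7% of all genes, and for 1 without pifq light ABA replicate 3 or pifq light mock replicate 1. In WT, where the 9 genes are described only, 11.9% of all genes were called. Leaving out BGLU34 and BGLU35, the ABA response was called as different between genotypes in darkness by edgeR for 0 of 7 against 11.4%, with 5 of the 7 at an unadjusted p under 0.05. DESeq2 and library totals each called 2, TGG1 and NSP5. In edgeR 1 was called without WT dark ABA replicate 2, WT dark ABA replicate 3 or pifq dark mock replicate 3. In light it was called for 1 of 7, ESM1, against 0.216%. The genotype effect differed between light and darkness in mock for 4 of those 7 against 18.4%. DESeq2 also called NSP2 (adjusted p = 0.00988) and ESP (adjusted p = 0.0345), the latter called by edgeR without pifq light mock replicate 2 (adjusted p = 0.0364). Their size is not given, since a group held 2 counts. Under ABA it differed for 4 of 7 against 16.9%. The difference between the genotypes in how ABA and light combined was called for 1 of 7, TGG1 (0.60, adjusted p = 0.0452), against 3.4%. That call was lost without any of 19 of the 24 libraries, with RLE size factors, with library totals, with no filter on low counts and with TGG1 and TGG2 summed.

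For BGLU34 and BGLU35 the same combined difference was -6.40 ± 1.14 and -6.45 ± 1.27, given without a test because the WT libraries by which BGLU35 had been picked out set it. Without WT dark ABA replicate 1 the BGLU34 value was -7.43, without WT dark ABA replicate 3 that of BGLU35 was -7.05 and without pifq dark ABA replicate 2 it was -5.82, and without WT light ABA replicate 3 they were -5.77 and -5.60.

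Per length of transcript, the order of the genes changed with light and genotype. In WT dark mock NSP1 led with 341 ± 36.3 CPM per kb, followed by TGG1 with 212 ± 9.04 and NSP5 with 211 ± 24.1, which did not differ beyond their spread, then TGG2 with 28.9 ± 3.84, BGLU34 with 21.1 ± 5.36, BGLU35 with 18.5 ± 3.41 and ESM1 with 4.45 ± 1.05. In WT light mock TGG1 led, followed by ESM1 with 175 ± 24.8, NSP1 with 153 ± 17.5, TGG2 with 105 ± 20.6 and NSP5 with 55.0 ± 8.48 CPM per kb. In pifq dark mock the order was TGG1 with 501 ± 13.8, NSP1 with 222 ± 41.0, ESM1 with 89.0 ± 13 and NSP5 with 87.5 ± 14.9 CPM per kb. NSP1 thus stood above TGG1 in WT dark mock and below it in pifq dark mock and WT light mock; in WT dark ABA they had 365 and 368 CPM per kb. Over the 24 libraries the log levels of TGG1 correlated with those of ESM1 at r = 0.891 and with those of NSP5 at r = -0.760, and those of NSP5 with ESM1 at r = -0.850, as a description over libraries that share groups.

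The genes with the most similar profile were named by Pearson's r of log levels over the 8 group means. Each r is the highest found in a search of all tested genes with a symbol, so high values follow from the search and carry no test. Over the 24 libraries r was lower for every pair named, from 0.813 for TGG2 with UGE2 to 0.980 for TGG1 with BGLU8. For BGLU34 these were AGP30 (r = 0.990) and XTH21 (r = 0.988), and for BGLU35 AGP30 (r = 0.993) and XTH21 (r = 0.985). For TGG1 they were AtVEX1 (r = 0.993) and BGLU8 (r = 0.991), and for TGG2 UGE2 (r = 0.962) and APL2 (r = 0.949). NSP1 was nearest to SCL3 and KUP7 (r = 0.989 for both), NSP2 to NF-YA3 (r = 0.994) and SCAMP5 (r = 0.993), and NSP5 to CBSX5 (r = 0.995) and Rap2.6L (r = 0.983). ESP was nearest to SYTA (r = 0.994) and SIGE (r = 0.990), and ESM1 to SDE3 (r = 0.986) and AtkdsA1 (r = 0.985).

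The genes that make the substrate are read against the shares of all genes called, which with ABA were 40.3% in WT dark, 40% in WT light, 48.6% in pifq dark and 46.7% in pifq light. Of 20 tested genes of aliphatic glucosinolate synthesis, ABA lowered 8 and raised 5 in WT dark (median change -0.49, against 0.07 over all genes), and lowered 12 and raised 2 in WT light (median -3.24). In pifq it lowered 11 and raised 4 in darkness (median -1.55) and lowered 12 and raised 3 in light (median -3.49). MAM3, a chain-elongation enzyme, changed by -5.65 ± 0.38 in WT dark, -6.15 ± 0.39 in WT light, -5.37 ± 0.43 in pifq dark and -5.70 ± 0.36 in pifq light. CYP79F2, which starts the core structure from elongated methionine, changed by -4.32 ± 0.28 in WT light and -5.11 ± 0.33 in pifq light. GS-OX4, a side-chain oxygenase, went the other way, with 2.32 ± 0.20 in WT dark, 2.12 ± 0.21 in WT light, 2.21 ± 0.21 in pifq dark and 2.38 ± 0.22 in pifq light.

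Light raised 18 of these 20 genes in WT mock and lowered 1 (median 3.86), against 64.9% of all genes called, and raised 19 and lowered 1 in pifq mock (median 2.45), against 57.3%. CYP83A1, the next enzyme of the core pathway, was 7.46 ± 0.33 higher in WT light than in WT darkness. In dark mock pifq was higher than WT for 6 and lower for 3 (median 0.44), a share near the 44.4% of all genes. MYB28, a main activator of the aliphatic genes and 1 of 11 regulators tested, was 2.90 ± 0.19 higher in pifq in dark mock. It was 3.83 ± 0.19 higher in WT light than in WT darkness. With ABA it fell by 1.51 in WT dark, 0.53 in WT light, 2.01 in pifq dark and 0.94 in pifq light. Of the 11 regulators, 2 were higher and 4 lower in pifq in dark mock (median -0.15), against 44.4% of all genes. In WT mock 3 were higher and 5 lower in light than in darkness (median -0.26), against 64.9%. Of the regulators, ABA raised none and lowered 3 in WT dark, raised 4 and lowered 3 in WT light, raised 2 and lowered 3 in pifq dark, and raised 4 and lowered 2 in pifq light; the 3 of 11 in WT dark are below the share of all genes called there.

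Of 17 tested genes of indolic and shared synthesis, ABA lowered 7 and raised 1 in WT dark (median -0.37), lowered 10 and raised 2 in WT light (median -0.56), lowered 10 and raised 1 in pifq dark (median -0.61) and lowered 9 and raised 2 in pifq light (median -0.40); the 8 of 17 called in WT dark are near the share of all genes. IGMT1, an indole glucosinolate methyltransferase, changed by -3.60 ± 0.36 in WT dark, and IGMT4, of the same family, by 0.70 ± 0.14. In dark mock pifq was lower than WT for 10 of the 17 and higher for 0 (median -0.47), against 44.4% of all genes, 20.9% lower. In WT mock light was higher for 4 and lower for 7 (median -0.41), together a share near the 64.9% of all genes. Of the transporters, GTR1 rose and GTR2 fell with ABA in all 4 conditions, GTR1 by 0.94 ± 0.11 and GTR2 by -0.99 ± 0.16 in WT dark.

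**Figure D4:**
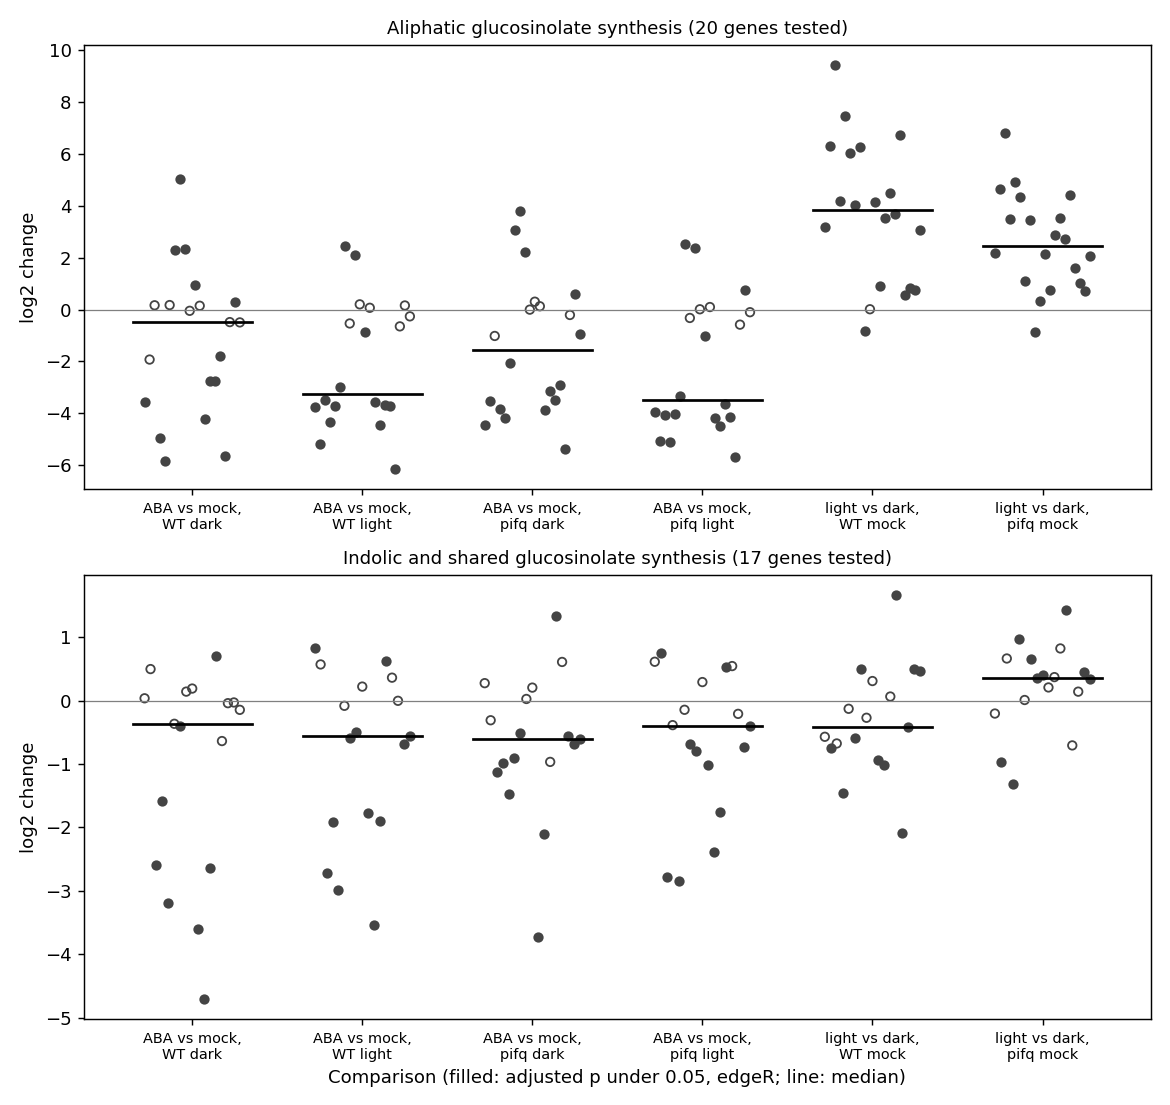
Log2 change of the glucosinolate synthesis genes, aliphatic above (20 genes) and indolic and shared below (17 genes), for ABA against mock in the 4 conditions and light against darkness in mock; each point is a gene, filled where edgeR's adjusted p was under 0.05, and the line is the median. The aliphatic median was -3.24 with ABA in WT light and 3.86 for light against darkness in WT mock.

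Other genes of glucosinolate breakdown showed mixed directions. They are read against the same shares of all genes called with ABA: 40.3% in WT dark, 40% in WT light, 48.6% in pifq dark and 46.7% in pifq light. Of 9 further beta-glucosidases and endoplasmic reticulum body genes, ABA lowered 6 in WT dark (median -0.74), lowered 5 and raised 1 in pifq dark (median -0.42), lowered 1 and raised 3 in WT light (median 0.06) and lowered 1 and raised 5 in pifq light (median 0.57). NAI2, needed for these bodies, changed by -1.27 ± 0.13 in WT dark. BGLU30 was lower in WT light than in WT darkness in mock (-5.13 ± 0.28). Of 8 other specifier and myrosinase-associated genes, ABA lowered 5 and raised 1 in WT dark, lowered 2 and raised 2 in WT light, lowered 4 in pifq dark and raised 1 in pifq light, with medians of -0.49, -0.15, -0.44 and -0.14. NSP4, the near copy of NSP1, changed by -2.41 ± 0.44 in WT dark, where NSP1 was not called. Of 4 nitrilases, which act on nitriles, NIT1 and NIT2 rose with ABA in all 4 conditions, by 0.55 ± 0.08 and 0.96 ± 0.17 in WT dark, where NIT3 and NIT4 fell, by 0.69 ± 0.17 and 0.44 ± 0.17.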

How the data were processed

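Stranded polyadenylated RNA libraries of whole seedlings, read as 100-base pairs, gave the count table. The deposited values are whole-number read counts per gene that the authors made before any scaling; STAR, SAMtools, FastQC, DESeq2 and the TAIR10 build are listed in the submitters' processing notes, with no program for assigning reads to genes. Of 32833 genes, 4822 had no count. Counts were scaled by TMM, filtered with filterByExpr and tested in edgeR 4.0.16 (R 4.3.3) by the robust quasi-likelihood F test, with 8 group coefficients over 24 libraries (16 residual degrees of freedom), 19 contrasts and Benjamini-Hochberg adjustment within each contrast. The procedure was tested on simulated data.

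The 9 genes, the pathway lists and the markers were chosen with earlier results of these data known. All 9 are named; from each pathway list and comparison at most the 2 called genes of lowest p in each direction are named, and for each member the 2 genes most like it by correlation; single markers of cell types were chosen after their values were seen. BGLU34 and BGLU35 had been planned as tested in comparisons with pifq libraries. Where those also use WT libraries the values are given without a test. AOP2 was not analysed here. Sequences, coordinates and coding identities come from TAIR10.1 (RefSeq), read with Biopython 1.88, and the authors' own build is TAIR10.

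Libraries of a group differed by more than counting noise (chi-square per degree of freedom 4.08 to 20), so none was treated as a repeat of another. Labels number the libraries 1 to 3 in every group. Deviations of same-numbered libraries correlated above 0.1 in all 3 pairs in 2 comparisons of the genotypes, those of dark mock (0.134, 0.146 and 0.321) and light ABA (0.393, 0.513 and 0.338); there the number was taken as pairing the samples from these correlations, not from the labels. Intervals on count ratios are exact, conditional on the total, at 95% and cover counting error only. Alternatives were RLE size factors, library totals, no filter, DESeq2 1.42.0, the compared groups alone, a replicate block and leaving out each library. In a further setting counts of related genes were summed: BGLU34 with BGLU35, TGG1 with TGG2, and NSP1 with NSP3 and NSP4.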

Additional observations from a re-analysis of the deposited data

Results flagged for a closer look

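Each result here is a difference between 2 groups' responses to the same contrast that passed edgeR's quasi-likelihood test of the difference itself (adjusted p under 0.05); values are log2 differences and no cause was tested. For the ABA response in light, pifq minus WT was -1.61 for ESM1. For the ABA response within pifq, light minus dark was -0.39 for TGG1, -1.67 for TGG2 and 0.65 for NSP1. For the difference of pifq from WT in mock, light minus dark was -1.49 for TGG1, -0.91 for TGG2, 1.25 for NSP5 and -4.32 for ESM1. Under ABA the same difference was -0.89 for TGG1, -1.22 for TGG2, 0.77 for NSP5 and -5.31 for ESM1. For the light dependence of the ABA response, pifq minus WT was 0.60 for TGG1, a call lost on leaving out most of the single libraries. Calls were also lost without some single libraries for ESM1 in light, TGG1 and NSP1 within pifq, and TGG2 in mock.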

How the results depend on the processing

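Counts of genes called leave out BGLU34 and BGLU35 where they are described without a test. The count for pifq against WT in light mock went from 0 to 1 (TGG1) with library totals, with DESeq2 and with the replicate block in a fit of all libraries. The count for the ABA response between genotypes in darkness went from 0 to 2 with library totals and with DESeq2 (TGG1 and NSP5) and to 1 with the replicate block in all libraries. That for the combined difference went from 1 to 0 with RLE size factors, library totals or no filter on low counts. It did so too with the counts of TGG1 and TGG2 summed. The count for pifq against WT in light ABA went from 1 to 3 with the replicate block in the 6 compared libraries, a setting chosen after seeing the data; the same block in dark mock gave 5 in place of 6, since NSP2 did not pass the filter on low counts there. With the block in all libraries, the difference between genotypes in the ABA response of NSP5 in darkness was also called (0.51, adjusted p = 0.0425) and BGLU35 in light against dark pifq mock was not (-1.06, adjusted p = 0.0513); it changed no other call.

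TGG2 for light against darkness in pifq ABA was -0.71 and reversed to 0.37 (adjusted p = 0.00108) when its counts were summed with those of TGG1, which hold most of the sum. Among all genes, pifq against WT in light ABA called 267, against 518 with DESeq2, 155 with the compared groups alone and 3924 with that block; the ABA response between genotypes in light called 45, against 141 and 11 by the first 2 of these, and the combined difference 709, against 1102 with DESeq2. Library totals moved the median of all genes by -0.13 to -0.22 in the 4 ABA and 4 light comparisons.

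Leaving out 1 library, the counts of members called ranged from 3 to 4 for ABA in WT light (5 with all libraries), 0 to 1 for pifq against WT in light mock, 1 to 3 for the difference of ABA responses between light and darkness in pifq, 0 to 1 for the ABA response between genotypes in darkness and in light, and 0 to 1 for the combined difference. They ranged from 4 to 5 for pifq against WT in dark ABA (6 with all libraries). The range was 4 to 6 for light against darkness in WT ABA (6 with all), 6 to 8 in pifq mock (8 with all) and 6 to 9 for ABA in pifq dark (8 with all). Low counts limit the values of NSP2 and ESP. They also limit those of BGLU34 and BGLU35 that use WT dark ABA, where the groups held 10 and 9 counts.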
